A study of Mus musculus with 8 samples.

Results

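C1qa, C1qb and C1qc encode the 3 chains of C1q, the recognition molecule of the classical complement pathway. They were found by Ensembl identifier as 3 of the 56748 rows of a gene count table made from mouse cells, and each passed the filter on low counts that left 16780 rows to test. The cells were described as macrophages, enriched with F4/80 magnetic beads from digested inguinal fat pads of WT female mice. The age of the mice is not given in the sources used here. In the group called Aldara (4 libraries), mice had received 62.5 mg of Aldara cream with 5% imiquimod, an agonist of the RNA sensor Toll-like receptor 7, on shaved skin of the back by the tail base. In the group called Vehicle (4 libraries), mice had received the same volume of control cream, a mix of Boots Aqueous Cream and Vaseline Lanette Cream. Cream was given on 3 days in a row in both groups, and fat pads were taken 24 h after the last dose. Each library pooled cells of 6 fat pads, about 30000 cells, from preparations with over 90% F4/80+CD64+ cells by flow cytometry. The creams may differ in more than imiquimod, which the design cannot separate.

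C1q is built from equal numbers of its A, B and C chains, so a cell that secretes it needs all of them. Its globular heads bind antibody in immune complexes, C-reactive protein and the surface of dying cells, and the bound molecule activates the proteases C1r and C1s, which cleave C4 and C2. Most complement proteins come from the liver, whereas C1q comes mainly from macrophages and dendritic cells.

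The chain genes lie next to each other on the minus strand of chromosome 4 within 18.7 kb (GRCm38, GENCODE M21). C1qa (ENSMUSG00000036887) spans chr4:136895917-136898803, C1qc (ENSMUSG00000036896) spans chr4:136889804-136893065 and C1qb (ENSMUSG00000036905) spans chr4:136880129-136886187. Gaps of 2851 and 3616 bases separate them, and 0 other annotated genes overlap them, so reads counted without regard to strand have no annotated neighbour to share. C1qa and C1qb have 1 annotated transcript each, of 1040 and 1088 bases, and C1qc has 2, of which the coding one is 1203 bases long.

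Because the 3 transcripts moved together between libraries, as described further on, the sequence upstream of their starts is shown with short motifs of transcription factors known in macrophages. RefSeq promoter windows (GRCm38) were matched for 2 of the 3 genes, C1qb and C1qc. The stretches below lie outside annotated transcripts, at chr4:136886201-136886450 for C1qb and chr4:136893066-136893164 for C1qc, both read from the minus strand. Capitals mark motif matches. They are the half-site of the element bound by Maf proteins (TGCTGA) and the core bound by PU.1 (GAGGAA) in C1qb, and in C1qc the PU.1 core and the half-site of liver X receptors (AGGTCA), both on the other strand and so printed as TTCCTC and TGACCT.
C1qb: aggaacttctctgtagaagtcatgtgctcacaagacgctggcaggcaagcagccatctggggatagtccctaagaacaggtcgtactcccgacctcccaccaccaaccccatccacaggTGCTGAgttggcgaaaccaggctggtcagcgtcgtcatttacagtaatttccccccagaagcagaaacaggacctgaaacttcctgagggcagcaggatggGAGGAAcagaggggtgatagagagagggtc
C1qc: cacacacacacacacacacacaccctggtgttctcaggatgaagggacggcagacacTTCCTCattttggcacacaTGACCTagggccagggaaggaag
The Maf half-site in C1qb lay 131 to 126 bases before the RefSeq start and the PU.1 core 30 to 25 bases before it. In C1qc, whose RefSeq start lies 151 bases inside the GENCODE transcript, the PU.1 core lay 193 to 188 bases and the liver X receptor half-site 174 to 169 bases before that start. Such letters are common. Of 32851 windows of 250 bases before RefSeq starts, 16.1% held the Maf half-site on either strand, 23.3% the PU.1 core and 14% the liver X receptor half-site. The interferon-stimulated response element, found in 2.98% of windows, was in neither of the C1q windows. None of the matches overlapped another, and no binding was measured here.

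Transcripts of the 3 chains were about 3-fold higher in Aldara than in Vehicle. C1qa had 493, 684, 1370 and 1220 CPM (the count of a gene scaled to library size, with TMM factors) in Aldara 1 to 4, against 207, 302, 435 and 310 CPM in Vehicle 1 to 4. The lowest Aldara library was above the highest Vehicle library, and Aldara 3 and 4 stood well above Aldara 1 and 2. C1qb had 512, 731, 1470 and 1280 CPM in Aldara 1 to 4, against 209, 301, 423 and 295 CPM in Vehicle 1 to 4. C1qc had 360, 527, 1000 and 1030 CPM in Aldara 1 to 4, against 142, 205, 322 and 210 CPM in Vehicle 1 to 4. The groups did not overlap for any chain, and Vehicle 3 was the highest and Vehicle 1 the lowest of the Vehicle libraries each time. Across all tested genes, every Aldara library was above every Vehicle library for 9.97%.

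**Figure D1:**
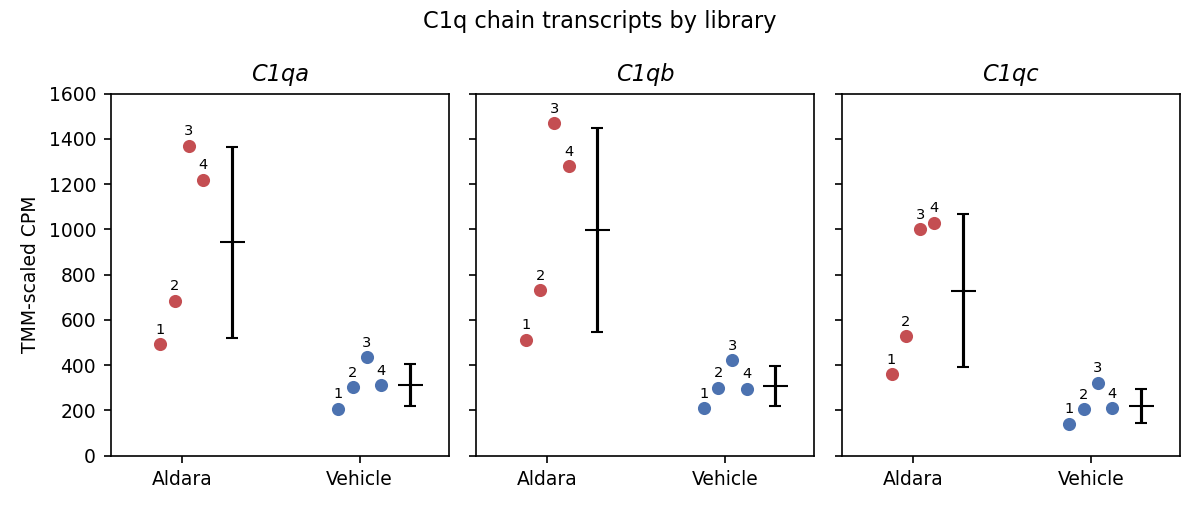
TMM-scaled CPM of C1qa, C1qb and C1qc (y axis) in each Aldara library (red) and Vehicle library (blue), numbered by replicate, with the group mean and SD (n = 4) as a bar beside the points. C1qa runs from 493 to 1370 CPM in Aldara and from 207 to 435 CPM in Vehicle, and the groups do not overlap in any panel.

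C1qa averaged 941 ± 419 CPM in Aldara and 314 ± 93.4 CPM in Vehicle (SD, n = 4 each), a log2 fold change of 1.58 (SE 0.34, edgeR quasi-likelihood test, adjusted p = 0.0201). C1qb averaged 998 ± 451 CPM in Aldara and 307 ± 87.8 CPM in Vehicle, a log2 fold change of 1.70 (SE 0.34, edgeR adjusted p = 0.0153). C1qc averaged 732 ± 340 CPM in Aldara and 220 ± 74.9 CPM in Vehicle, a log2 fold change of 1.74 (SE 0.37, edgeR adjusted p = 0.0188). These are folds of 3.00, 3.25 and 3.33, and each chain rose at the adjusted threshold of 0.05, as did 6.98% of all tested genes, while 3.86% fell. Among all tested genes the log2 fold changes of the chains stood at the 98.3, 98.6 and 98.7 percentiles, and the median gene was at 0.01. The adjusted p depended on the fit. It was 0.000369 for C1qa, 0.000431 for C1qb and 0.000607 for C1qc with the replicate block in edgeR, and 1.03e-05, 1.66e-06 and 0.000667 with DESeq2. With every row tested and no filter on low counts the adjusted p was 0.105 for C1qa, 0.0843 for C1qb and 0.0995 for C1qc, and the calls of C1qa and C1qc were each lost when Aldara 3, Aldara 4, Vehicle 1, Vehicle 2 or Vehicle 4 was left out (highest adjusted p = 0.0730 and 0.0672), and that of C1qb without Aldara 4 (0.0589).

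Per kilobase of the coding transcript, which makes levels comparable between genes, C1qa averaged 905 ± 403 CPM in Aldara and 302 ± 89.9 CPM in Vehicle. C1qb averaged 917 ± 414 CPM per kb in Aldara and 282 ± 80.7 CPM per kb in Vehicle. These means of C1qa and C1qb differed by less than the SD between libraries, which does not measure differences within a library. In Vehicle 1 to 4, C1qb had 192, 277, 388 and 271 CPM per kb, each below the 199, 290, 418 and 298 of C1qa. In Aldara 1 to 4, C1qb had 470, 672, 1350 and 1180 CPM per kb against 474, 658, 1310 and 1170 for C1qa. C1qc averaged 608 ± 282 CPM per kb in Aldara and 183 ± 62.2 CPM per kb in Vehicle, and over all its annotated exon bases (1931) it averaged 379 ± 176 CPM per kb in Aldara and 114 ± 38.8 CPM per kb in Vehicle, again the lowest mean of the 3. Together the chains took 0.139%, 0.201%, 0.384% and 0.341% of the counts of Aldara 1 to 4, against 0.0534%, 0.0809%, 0.121% and 0.0814% of those of Vehicle 1 to 4.

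The 3 chains kept nearly the same proportions to each other in every library while their common level changed several-fold. C1qa made up 34.5% to 36.1% of the chain counts in Aldara and 36.9% to 38.1% in Vehicle. C1qb made up 36.2% to 38.2% in Aldara and 35.8% to 37.4% in Vehicle. C1qc made up 26.2% to 29.2% in Aldara and 25.4% to 27.3% in Vehicle. The SD of the log2 level over the 8 libraries was 0.97 for C1qa, 1.02 for C1qb and 1.06 for C1qc, whereas the SD of the log2 ratio of a pair was 0.065 for C1qb to C1qa, 0.088 for C1qb to C1qc and 0.11 for C1qc to C1qa. The spread of each ratio was therefore a small part of the spread of the levels.

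**Figure D2:**
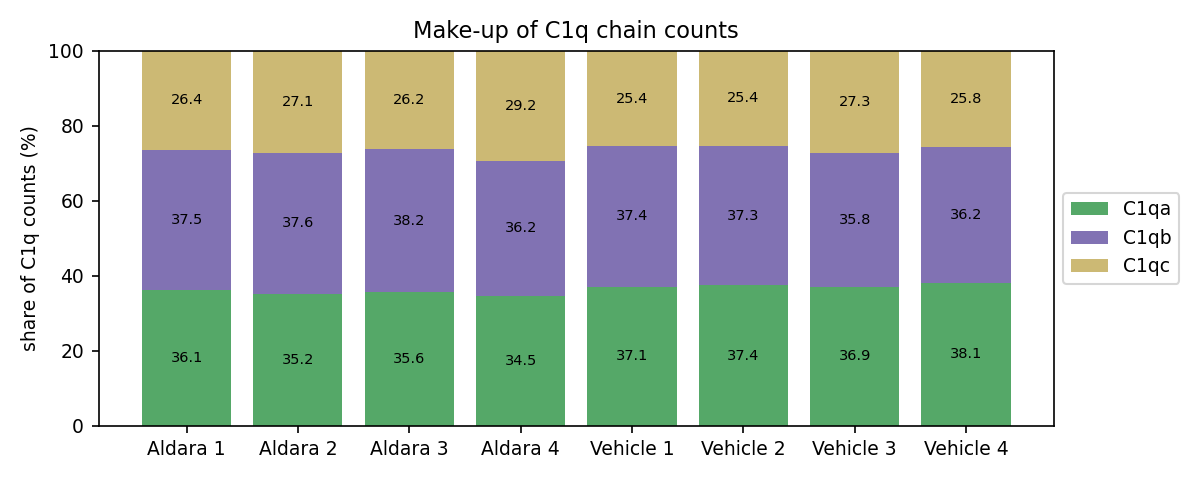
Share of the summed C1q chain counts (y axis, percent) taken by C1qa, C1qb and C1qc in each of the 8 libraries, Aldara on the left and Vehicle on the right. C1qa takes 34.5% to 36.1% in Aldara and 36.9% to 38.1% in Vehicle, and C1qc is highest in Aldara 4 at 29.2%.

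Against this near-constant make-up, C1qb was slightly higher relative to C1qa in Aldara. The count ratio of C1qb to C1qa was 1.04, 1.07, 1.07 and 1.05 in Aldara 1 to 4, against 1.01, 0.996, 0.971 and 0.950 in Vehicle 1 to 4. The groups did not overlap, with a difference in mean log2 ratio of 0.108 (two-sided exact permutation test, p = 0.0286, the smallest that 4 against 4 can give), but the adjusted p over the 3 pairs was 0.0857. Counting error of this log2 ratio was 0.011 to 0.031 (SE) per library. The ratio of C1qc to C1qa was 0.731, 0.770, 0.735 and 0.847 in Aldara 1 to 4, against 0.684, 0.678, 0.740 and 0.676 in Vehicle 1 to 4. These groups overlapped through Vehicle 3, and the log2 difference of 0.149 did not pass (exact permutation p = 0.0857, adjusted p = 0.129). The ratio of C1qb to C1qc ran from 1.24 to 1.46 in Aldara and from 1.31 to 1.47 in Vehicle (log2 difference −0.040, exact permutation p = 0.571, adjusted p = 0.571). Without Vehicle 3, the exact adjusted p of the first 2 ratios was 0.0429. With any other single library left out neither passed, at 0.0857 for C1qb to C1qa and 0.129 to 0.257 for C1qc to C1qa.

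The order of the libraries was nearly shared. C1qa was highest in Aldara 3, followed by Aldara 4, 2 and 1 and then Vehicle 3, 4, 2 and 1. C1qb differed from this in Vehicle 2 and 4, which lay within 6 CPM of each other, and C1qc in Aldara 3 and 4. As a description over 8 libraries that share their depth and fall into 2 groups that do not overlap, Pearson's r of log2 CPM was 0.999 for C1qa with C1qb, 0.998 for C1qa with C1qc and 0.997 for C1qb with C1qc. After taking each group's mean from its libraries, r was 0.999, 0.994 and 0.991. Among the 16779 other tested genes, C1qb had the highest r with C1qa and C1qa the highest with C1qb, and C1qc came 2nd for C1qa and 3rd for C1qb. With the group means taken away, C1qa and C1qb were again each other's nearest, and C1qc came 7th for C1qa and 12th for C1qb. For C1qc, C1qa came 2nd and C1qb 3rd, and 7th and 8th with the group means taken away. The gene nearest to C1qc was thus not a chain by either measure. Same-numbered libraries were 1.29, 1.27, 1.70 and 2.13 apart in the mean log2 CPM of the chains, Aldara above Vehicle in each of the 4 numbers.

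The genes beside the cluster did not pass the test. Zbtb40, a zinc finger gene beyond C1qa, averaged 23.7 ± 0.314 CPM in Aldara and 22.8 ± 4.91 CPM in Vehicle (log2 fold change 0.05, edgeR adjusted p = 0.859). Ephb2, an ephrin receptor gene beyond C1qb, averaged 2.88 ± 1.32 CPM in Aldara and 3.06 ± 0.98 CPM in Vehicle (log2 fold change −0.09, edgeR adjusted p = 0.909). The signs of both turned in some fits. Epha8, the nearer gene beyond C1qa, and Lactbl1, the farther gene beyond C1qb, had too few counts to test. They had 1 and 2 counts over the Aldara libraries and 1 and 0 over the Vehicle libraries.

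Other leukocyte transcripts were also higher in Aldara. The geometric mean of 18 genes expressed across leukocytes and macrophages, called the leukocyte gauge here and holding no C1q chain, was 90.8, 136, 251 and 236 CPM in Aldara 1 to 4, against 37.6, 47.0, 56.6 and 46.5 CPM in Vehicle 1 to 4. Of these 18 genes 15 rose and 0 fell, among them the haematopoietic GTPase gene Rac2 (241 ± 120 CPM in Aldara and 19.5 ± 2.1 CPM in Vehicle), and the mean log2 level of the gauge was 1.82 higher. For comparison, 6.98% of all tested genes rose and 3.86% fell. The order of the libraries in the gauge within Aldara was that of C1qa. In bulk RNA, more cells that express C1q and more C1q RNA per cell cannot be told apart.

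Set against the gauge, no chain passed the test in either direction. The log2 of C1qa over the gauge was 2.44, 2.33, 2.45 and 2.37 in Aldara 1 to 4, against 2.46, 2.68, 2.94 and 2.74 in Vehicle 1 to 4. The Aldara libraries lay close together and just below the lowest Vehicle library. For C1qb the log2 over the gauge was 2.42 to 2.55 in Aldara and 2.48 to 2.90 in Vehicle, and for C1qc it was 1.95 to 2.13 in Aldara and 1.92 to 2.51 in Vehicle, so these groups overlapped. In the edgeR fit scaled to the gauge, the log2 fold change was −0.32 for C1qa (SE 0.42, adjusted p = 0.452), −0.21 for C1qb (SE 0.42, adjusted p = 0.622) and −0.18 for C1qc (SE 0.42, adjusted p = 0.678). These SEs were larger than the SDs of the log2 ratios, 0.06 to 0.08 in Aldara and 0.17 to 0.25 in Vehicle. The lack of a call in this fit therefore does not show equal levels. Of the 3 chains 0 were called and 0 had an unadjusted p under 0.05, while 94.6% of all tested genes were called on this scale, 0.298% as higher and 94.3% as lower. The exact permutation test on the ratios, an alternative added after the data were seen, gave p = 0.0286 for C1qa, 0.0857 for C1qb and 0.314 for C1qc, and 0.0857, 0.129 and 0.314 after adjustment over the 3 chains.

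**Figure D3:**
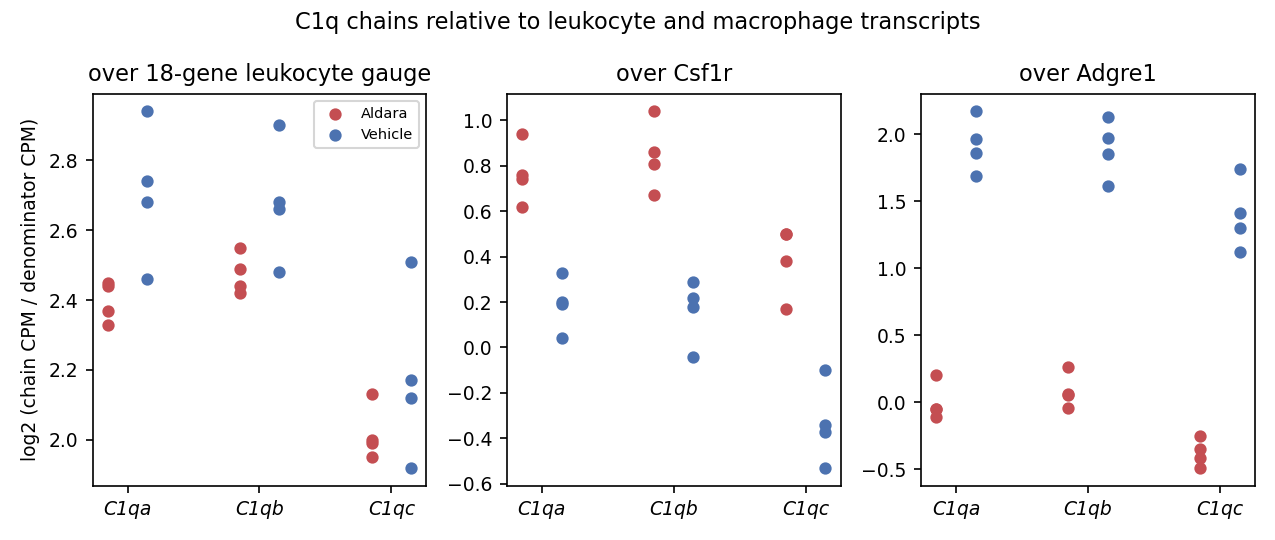
Log2 of chain CPM over the 18-gene leukocyte gauge (left), over Csf1r (middle) and over Adgre1 (right) on y axes of different ranges, one point per library, Aldara in red and Vehicle in blue. Aldara points lie above the Vehicle points over Csf1r, below them over Adgre1, and at their lower edge over the gauge.

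The relative level therefore depended on the macrophage transcript used as denominator. Csf1r, the receptor for the macrophage growth factor CSF1, averaged 542 ± 211 CPM in Aldara and 273 ± 70.3 CPM in Vehicle, a log2 difference of 0.99 that did not pass without pairing (edgeR adjusted p = 0.0648) and passed with the replicate number as a block (0.00114). Over Csf1r, the log2 ratio was 0.57 higher for C1qa, 0.68 higher for C1qb and 0.72 higher for C1qc in Aldara, with groups that did not overlap (exact permutation p = 0.0286 each, adjusted p = 0.0286). The edgeR fit scaled to Csf1r gave the same differences with adjusted p = 0.203, 0.137 and 0.120. Adgre1, which encodes F4/80, the protein used for the bead selection, averaged 966 ± 476 CPM in Aldara and 82.4 ± 20.4 CPM in Vehicle, a log2 fold change of 3.55 (SE 0.40, edgeR adjusted p = 0.0021). Over Adgre1 the differences in log2 ratio, Aldara minus Vehicle, were −1.92 for C1qa, −1.81 for C1qb and −1.77 for C1qc, again without overlap (exact permutation p = 0.0286 each, adjusted p = 0.0286). Over Ptprc, the pan-leukocyte phosphatase CD45, the differences were −0.25, −0.14 and −0.10 (exact permutation p = 0.114, 0.314 and 0.657). Csf1r and Ptprc are themselves gauge genes. Each ratio also carries the change of its denominator, and the median tested gene had a log2 fold change of 0.01. The share of all tested genes without overlap over Csf1r or Adgre1 was not examined, so these calls do not set the chains apart. Fcgr1, which encodes the other gate protein CD64, averaged 26.5 ± 12.3 CPM in Aldara and 19.7 ± 1.84 CPM in Vehicle and did not pass (log2 fold change 0.42, edgeR adjusted p = 0.436).

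Some of the remaining genes of the classical pathway also rose. Of 8 listed genes 6 were tested, 4 rose and 0 fell, with a median log2 fold change of 0.73 against 0.01 for all genes. Over all tested genes 6.98% rose and 3.86% fell. C4b, the complement component cleaved by C1s, averaged 777 ± 259 CPM in Aldara and 293 ± 36.1 CPM in Vehicle (log2 fold change 1.41, SE 0.23, edgeR adjusted p = 0.00623), though reads of C4b and its near-identical copy C4a (log2 fold change 0.45, adjusted p = 0.181) may be split uncertainly. C3, on which the complement pathways converge, averaged 285 ± 106 CPM in Aldara and 108 ± 50.1 CPM in Vehicle (log2 fold change 1.41, edgeR adjusted p = 0.0375). C1s1 averaged 47.5 ± 13 CPM in Aldara and 26.3 ± 2.98 CPM in Vehicle (0.86, edgeR adjusted p = 0.0213), and C1ra 30.8 ± 5.2 CPM in Aldara and 20.3 ± 0.385 CPM in Vehicle (0.60, edgeR adjusted p = 0.0115). These encode the proteases that bind C1q. C2, whose product is cleaved together with C4, had a log2 fold change of 0.46 and did not pass (edgeR adjusted p = 0.174). The protease copies C1rb and C1s2 had 7 and 14 counts over the Aldara libraries and 6 and 22 over the Vehicle libraries, and were not tested. Values of C1s1 and C3 overlapped between the groups. After taking each group's mean from its libraries, r with the mean log2 CPM of the chains was 0.939 for C4b and 0.768 for C2. It was −0.361 for C1ra, −0.396 for C1s1 and −0.552 for C3, and no test was run on these values.

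Per kilobase of exon, C1ra averaged 10.3 CPM in Aldara and 6.82 CPM in Vehicle, and C1s1 averaged 15.2 CPM in Aldara and 8.4 CPM in Vehicle. On the same scale C4b averaged 136 CPM in Aldara and 51.4 CPM in Vehicle, and C3 averaged 55.5 CPM in Aldara and 20.9 CPM in Vehicle. Each of these levels was below that of each C1q chain in the same group. The calls of C1s1 and C3 were lost when single libraries were left out, for C1s1 without Aldara 2, Aldara 3, Vehicle 2, Vehicle 3 or Vehicle 4 (highest adjusted p = 0.0639) and for C3 without Aldara 1, 2 or 3 or Vehicle 2, 3 or 4 (highest 0.0974).

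Among 11 genes for regulators of C1 and of the steps after it, 8 were tested, 1 rose and 0 fell (median log2 fold change 0.12). With 6.98% of all tested genes rising and 3.86% falling, 1 riser among 8 does not set this list apart. The riser was Cd55, which encodes decay-accelerating factor, at 107 ± 27.5 CPM in Aldara and 52.2 ± 5.18 CPM in Vehicle (log2 fold change 1.04, edgeR adjusted p = 0.0054). With the replicate block 2 rose. Serping1, the C1 inhibitor gene that holds C1r and C1s in check, averaged 23.4 ± 6.75 CPM in Aldara and 21.3 ± 7.56 CPM in Vehicle (log2 fold change 0.14, edgeR adjusted p = 0.804), named after its value was seen.

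Of 10 genes for C1q receptors and binding proteins 9 were tested, 4 rose and 1 fell (median log2 fold change 0.80). The shares of all tested genes that rose and fell were 6.98% and 3.86%. Itgam and Itgb2, the subunits of the integrin Mac-1 that serves as a complement receptor, had log2 fold changes of 2.99 (edgeR adjusted p = 0.0033) and 2.84 (0.00313). Lrp1, which encodes an endocytic receptor that partners with calreticulin, averaged 320 ± 75.2 CPM in Aldara and 168 ± 25.4 CPM in Vehicle (0.93, edgeR adjusted p = 0.00981). Lair1, an inhibitory collagen receptor, had a log2 fold change of 1.15 (edgeR adjusted p = 0.0222), a call lost without any one of Aldara 2, 3 or 4 or Vehicle 1, 2 or 4 (highest 0.0715) and with limma voom (0.0572). Cd93, once described as a C1q receptor and named after its value was seen, averaged 33.5 ± 4.72 CPM in Aldara and 45.7 ± 6.28 CPM in Vehicle, overlapping groups (log2 fold change −0.45, edgeR adjusted p = 0.0491). That call was lost without any one of Aldara 2, 3 or 4 or Vehicle 1, 2 or 4 (highest 0.125) and with limma voom (0.0609).

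Transcription factors known to act in macrophages, among them regulators of C1q genes, rose in 4 of 7 cases with 0 falling (median log2 fold change 1.13). As a background, 6.98% of all tested genes rose and 3.86% fell. Spi1, which encodes PU.1, had a log2 fold change of 2.11 (edgeR adjusted p = 0.00629) and is also a gauge gene, as is Itgb2. Irf5 and Irf8, interferon regulatory factor genes, had log2 fold changes of 1.59 and 1.39 (edgeR adjusted p = 0.0112 and 0.0107). Maf averaged 147 ± 55.7 CPM in Aldara and 73.8 ± 18.5 CPM in Vehicle (log2 fold change 1.00, edgeR adjusted p = 0.0535, with the replicate block 0.00149). Nr1h3, which encodes liver X receptor alpha, had a log2 fold change of 0.27 and Cebpb one of 0.12, and neither passed.

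Genes of tissue-resident macrophages, which are known as C1q producers, rose in 5 of 16 cases with 0 falling (median log2 fold change 0.96). Among all tested genes 6.98% rose and 3.86% fell. Fcrls, an Fc receptor-like gene, averaged 462 ± 254 CPM in Aldara and 72 ± 15.3 CPM in Vehicle (log2 fold change 2.68, edgeR adjusted p = 0.00616). Ms4a7, a membrane protein gene, had a log2 fold change of 2.42 (0.00985), Vsig4, a receptor for C3b, 1.94 (0.013), and the lectin gene Cd209f 1.69 (0.0119), by the same edgeR test. Selenop, a selenium carrier gene named after its value was seen, had a log2 fold change of 1.54 (edgeR adjusted p = 0.0172), a call lost without Aldara 4 (0.0614) or Vehicle 2 (0.0531). The other 11 genes did not pass. Among them, named after their values were seen, Lyve1, Timd4 and Gas6 had log2 fold changes of −0.13, −0.15 and −0.02, and Pf4 and Folr2 of 0.24 and 0.38. The count of risers was 11 with the replicate block, 11 with DESeq2, 10 without Aldara 1 and 2 with no filter on low counts.

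**Figure D4:**
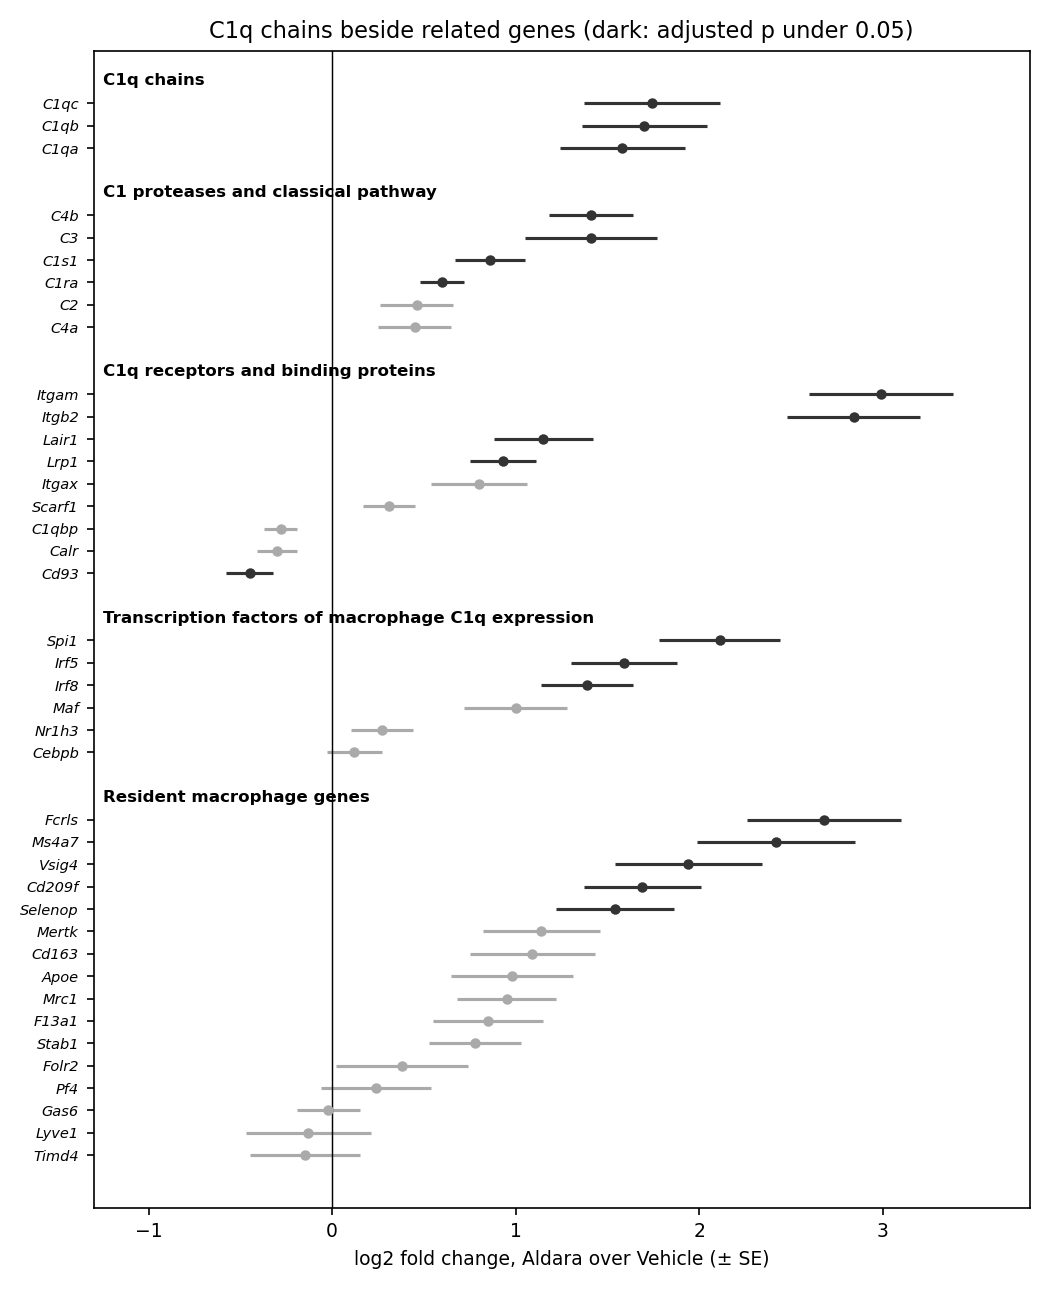
Log2 fold change of Aldara over Vehicle with its SE (x axis) for the C1q chains and tested members of 4 related gene lists, dark where the adjusted p was under 0.05. The chains stand at 1.58 to 1.74, C4b and C3 at 1.41, and Cd93 is the dark point below 0.

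Markers of other cell types were measured beside the chains, and 10.8% of all tested genes were called in either direction. The 7 epithelial markers were abundant in both groups, with a summed level of 9870 to 12800 CPM in Aldara and 9360 to 13100 CPM in Vehicle, and 0 of 7 were called, though Cldn4 passed with the replicate block (adjusted p = 0.0245). Krt8, for example, averaged 4170 ± 586 CPM in Aldara and 4140 ± 934 CPM in Vehicle, so RNA of epithelial genes was present in libraries from cells gated as macrophages. Of 5 fibroblast markers 4 fell, the sum being 52.1 to 109 CPM in Aldara and 167 to 436 CPM in Vehicle. Endothelial markers summed to 204 to 379 CPM in Aldara and 218 to 340 CPM in Vehicle with 0 of 5 called. Of 5 adipocyte markers 2 rose, with sums of 89.7 to 185 CPM in Aldara and 131 to 188 CPM in Vehicle. Most of this sum was Fabp4, named after its value was seen and not called (131 ± 40.3 CPM in Aldara and 155 ± 23.9 CPM in Vehicle). The risers were low, Cidec at 2.83 and 0.663 CPM and Adipoq at 1.25 and 0.569 CPM in Aldara and Vehicle. Of the 5 monocyte markers 4 were tested and 1 fell, with sums of 694 to 1000 CPM in Aldara and 702 to 889 CPM in Vehicle. Most of this sum was Nr4a1 (784 ± 120 CPM in Aldara and 711 ± 81.7 CPM in Vehicle), whereas Ly6c2 averaged 0.347 and 1.06 CPM. Dendritic cell markers, of a cell type that can also make C1q, summed to 6.37 to 8.45 CPM in Aldara and 5.62 to 8.12 CPM in Vehicle, with 0 of 3 tested called, and B cell markers to 5.85 to 11 CPM in Aldara and 0.62 to 5.39 CPM in Vehicle, with 1 of 2 tested rising. The T cell and neutrophil markers were each under 1 CPM in every library. Of 5 mast cell markers 1 was tested and not called (sums of 185 to 360 CPM in Aldara and 230 to 311 CPM in Vehicle). That gene was Kit (288 ± 82.5 CPM in Aldara and 257 ± 37.2 CPM in Vehicle), and the other 4 were under 1 CPM in every library. A sum carried by 1 gene does not show that a cell type was present. The part of these cells in the C1q result was not tested.

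The genes whose levels were most like the mean log2 CPM of the 3 chains, over 8 libraries and among 10965 genes with at least 5 CPM, were Ticam2, Evi2a, Pla2g15 and Cd302 (r = 0.997 each) and Tnfaip8l2, Tyrobp, Ctss and Ly86 (r = 0.996 each). Ticam2 encodes an adaptor of Toll-like receptor 4 signalling, Pla2g15 a lysosomal phospholipase and Cd302 a C-type lectin receptor. Tnfaip8l2 encodes a regulator of innate immune signalling, Tyrobp the adaptor DAP12, Ctss the protease cathepsin S and Ly86 the protein MD-1. The groups do not overlap for any of these 8 genes, and the r values carry no test. Maf ranked 146 by this measure, Csf1r 188, Ptprc 117 and Adgre1 341. Ctss averaged 257 ± 105 CPM in Aldara and 94.8 ± 31.9 CPM in Vehicle (log2 fold change 1.44), and Tyrobp 108 ± 50.3 CPM in Aldara and 31.1 ± 13.5 CPM in Vehicle (1.79). Of these 8 genes, whose likeness to the chains fixes their direction, log2 fold changes ran from 1.31 to 2.05. Tyrobp and Ctss are also genes of the leukocyte gauge.

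**Figure D5:**
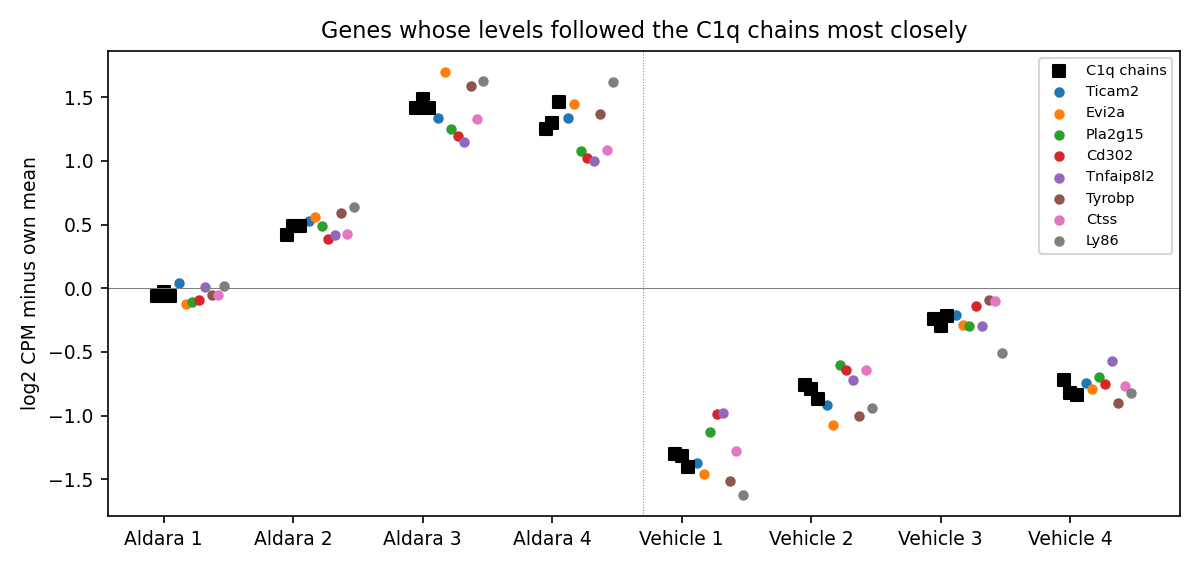
Log2 CPM minus the gene's own mean over the 8 libraries (y axis) for the 3 C1q chains (black squares) and the 8 genes most like them (coloured points), with Aldara libraries left of the dotted line and Vehicle libraries right of it. Every gene shown is higher in Aldara 3 and Aldara 4 than in the other libraries, and the chains lie among the coloured points in each library.

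Within groups, after each group's mean was taken away, other genes were most like the chains. They were Clec4a2 (r = 0.997), Clec4a3 (0.996), Apobec1 (0.996), Ptafr (0.995), Enpep (0.995), Ighm (0.993), Pltp (0.993) and Cd37 (0.992). This measure does not use the difference between groups. Most of these genes rose, and only Enpep was lower in Aldara, without passing the main test. Clec4a2, a C-type lectin receptor gene, averaged 103 ± 52 CPM in Aldara and 10.8 ± 3.88 CPM in Vehicle (log2 fold change 3.24, edgeR adjusted p = 0.00328). Pltp, which encodes a phospholipid transfer protein, averaged 898 ± 385 CPM in Aldara and 197 ± 59.4 CPM in Vehicle (2.19, edgeR adjusted p = 0.00627). Clec4a3, Cd37 and Ighm also rose, with log2 fold changes of 2.81, 1.97 and 1.69. Enpep, which encodes an aminopeptidase, averaged 13.6 ± 4.06 CPM in Aldara and 19.1 ± 4.09 CPM in Vehicle (−0.49, edgeR adjusted p = 0.192, with the replicate block 0.0182). Apobec1 and Ptafr, the receptor gene for platelet-activating factor, had log2 fold changes of 0.86 and 0.70, which passed with the replicate block (adjusted p = 0.00186 and 0.00326) and not without it (0.0651 and 0.0949).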

How the data were processed

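RNA of 4 Aldara and 4 Vehicle libraries was amplified with a SMARTer ultra-low-input kit after poly-A enrichment, per the labels' protocols, which does not mark strand. The authors deposited raw whole-number read counts for each gene. The submitters' processing notes name the mm10 build, the aligner HISAT2 (2.0.5), the counter featureCounts (1.5.0-p3) and DESeq2 (version not given). The annotation used for counting is not given in the sources used here. Symbols came from GENCODE M21 for 52073 of 56748 rows, with the coordinates of the chains (GRCm38), and promoter windows came from RefSeq. Some row identifiers are newer than GENCODE M21.

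Library totals were 19537607 to 24340674 counts in Aldara and 21874780 to 34471508 in Vehicle, so that 1 count was worth less than 0.1 CPM. Amplified reads are not independent molecules, and counting errors cover counting alone. Counts were tested in R 4.3.3 with edgeR 4.0.16 (filterByExpr, TMM factors of 0.957 to 1.035, robust quasi-likelihood F test, Benjamini-Hochberg adjustment over 16780 genes, threshold 0.05) without a replicate block. Chain ratios used log2 counts with a prior count of 2 and a two-sided exact permutation test over 70 arrangements. The gauge fit held the geometric mean of the 18 gauge genes equal between libraries. The code was tested on simulated counts.

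No label ties the pools of a group to different animals, and p-values then rest on the spread among pools, which may be technical. No 2 libraries of a group were copies of each other (smallest chi-square per degree of freedom 20.2). Replicate numbers are shared between the groups in the labels. Deviations from the group means correlated at 0.228, 0.108, 0.167 and 0.218 for the 4 same-numbered pairs. These were read as possible pairs from the data alone, since the labels state no shared batch. The main tests did not use the pairs. Only the replicate block and the paired sign flips, both alternatives, did.

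The genes named are the chains, every classical pathway member, from each list the up to 4 tested genes with the smallest p, Adgre1, Fcgr1, Csf1r, Maf, the 8 genes most like the chains by each measure, and the 2 nearest protein-coding neighbours on each side, except where a name is said to have been chosen after its value was seen. Some genes so chosen are not reported here, though they remain in the counts and medians of their lists. The members and lists were chosen with earlier results of these data known. Alternatives were the replicate block, no filter or at least 10 counts in 4 libraries, other scalings (RLE, upper-quartile), DESeq2 1.42.0, limma 3.58.1 voom, leaving out each library, and other denominators for the chains.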

Additional observations from a re-analysis of the deposited data

Results flagged for a closer look

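The log2 ratio of C1qc to C1qa in Vehicle 3, −0.435, stood apart from −0.547, −0.561 and −0.564 in Vehicle 1, 2 and 4. Its gap to the nearest of these was 0.868 of the range of the group, above the 95% critical value of Dixon's test for 4 samples. It was the only one of 42 groups of 4 libraries examined that did so, and chance marks about 1 group in 20. Vehicle 3 was also the deepest library, with 34471508 counts, and the highest Vehicle library for each chain.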

How the results depend on the processing

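The chains stayed higher in Aldara in every fit that was not scaled to other leukocyte or macrophage genes. Leaving out 1 library gave log2 fold changes of 1.35 to 1.80 for C1qa, 1.46 to 1.92 for C1qb and 1.51 to 1.98 for C1qc. Without a filter on low counts they were 1.58, 1.70 and 1.73 (adjusted p = 0.105, 0.0843 and 0.0995), and the cause was not tested. The replicate block gave 1.51, 1.62 and 1.66 (edgeR adjusted p = 0.000369, 0.000431 and 0.000607). Across all genes, leaving out 1 library gave 629 to 1405 risers and 323 to 664 fallers. There were 1030 fallers with the replicate block, 990 with upper-quartile factors and 1198 with DESeq2. Upper-quartile factors gave 979 risers, so that rises made up 49.7% of calls against 64.4%.

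Over the gauge, leaving out 1 library gave −0.40 to −0.24 for C1qa, −0.27 to −0.13 for C1qb and −0.26 to −0.05 for C1qc. With Csf1r alone the 3 values turned to 0.57, 0.68 and 0.72, both in the edgeR fit and by exact permutation. With Adgre1 alone they passed at −1.92, −1.82 and −1.79 in the edgeR fit, and at −1.92, −1.81 and −1.77 by exact permutation. Leaving out 1 library gave log2 differences of 0.093 to 0.121 for C1qb to C1qa, 0.102 to 0.179 for C1qc to C1qa and −0.076 to 0.009 for C1qb to C1qc, the last turning to 0.009 without Aldara 4. Paired sign flips of the ratios, 16 arrangements, cannot pass the threshold. The neighbours turned sign at values near 0, with Ephb2 ranging from −0.37 to 0.17 when 1 library was left out, 0.07 without Aldara 3 or Aldara 4, and Zbtb40 from −0.03 to 0.21, at −0.03 (without Vehicle 2), 0.00 (without Vehicle 3) and 0.00 (upper-quartile factors). Beyond the changes given beside the results and observations, the replicate block changed no other call among the named genes followed singly through the alternatives. Krt8, Fabp4, Serping1, Nr1h3, Cebpb, Lyve1, Timd4, Gas6, Pf4 and Folr2 were not followed singly.

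Of 1629 alternative values for 109 results, 1415 kept their direction and their side of the threshold or, for counts of called genes, stayed within 1.5 times the count reported, and 13 reversed. Pools of unknown animals, 4 libraries per group and unstranded reads limit the calls.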

Other observations

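Genes that share the C1q domain without being part of C1q showed no common direction. Of 26 such genes 14 were tested, 3 rose and 1 fell, with a median log2 fold change of 0.10 against 0.01 for all genes, and 4 were at 0 in every library. Over all tested genes 6.98% rose and 3.86% fell. Col8a1, a short-chain collagen gene, averaged 245 ± 70.7 CPM in Aldara and 141 ± 4.86 CPM in Vehicle (log2 fold change 0.80, edgeR adjusted p = 0.0181). Emilin2, which encodes an extracellular matrix glycoprotein, averaged 76.9 ± 37.2 CPM in Aldara and 26.5 ± 5.59 CPM in Vehicle (1.54, edgeR adjusted p = 0.0239), and the call was lost with the replicate block (0.0887). The adipocyte hormone gene Adipoq averaged 1.25 ± 0.322 CPM in Aldara and 0.569 ± 0.113 CPM in Vehicle (1.14, edgeR adjusted p = 0.0356). C1qtnf6, a secreted C1q and TNF related protein gene, averaged 15.5 ± 3.79 CPM in Aldara and 24.7 ± 3.49 CPM in Vehicle (−0.67, edgeR adjusted p = 0.0346), and 2 of these genes fell with the replicate block. Each of these calls was lost when single libraries were left out, at the highest adjusted p of 0.0536 for Col8a1 (without Aldara 3, Vehicle 1 or Vehicle 2), 0.0840 for Emilin2 (without Aldara 3 or 4 or Vehicle 1, 3 or 4), 0.0954 for Adipoq (without any library but Aldara 2) and 0.0892 for C1qtnf6 (without Aldara 2 or 4 or Vehicle 2, 3 or 4).

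Of 12 genes for pattern recognition proteins and the lectin pathway, the route into complement that runs beside C1q, 6 were tested (median log2 fold change 0.12). By edgeR 0 were called in either direction, against 10.8% of all tested genes. The unadjusted p was under 0.05 for 1 gene. This gene was Fcna, which encodes the lectin ficolin A, at 127 ± 49.8 CPM in Aldara and 61.6 ± 18.7 CPM in Vehicle (log2 fold change 1.04, adjusted p = 0.0574). It passed with the replicate block (0.00475), with DESeq2 (0.0035), with limma voom (0.0498), without Aldara 1 (0.0363) and without Vehicle 3 (0.0471). The mannose-binding lectin genes Mbl1 and Mbl2 and the genes Apcs, Fcnb and Colec10 were at 0 counts in every library.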
